A study of Mus musculus with 4 samples.

Results

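The genes described here are 49 genes of pre-mRNA splicing: hnRNP proteins and other nuclear RNA-binding proteins, SR proteins and their kinases, and proteins of the spliceosome. They were taken by symbol from a table of read counts for 58735 genes, and each of the 49 symbols matched 1 row. RNA was taken from Jurkat, a leukaemia line of human T cells kept in medium with serum. The 2 groups were 2 libraries labelled MATR3 knockout, made with CRISPR-Cas9, and 2 libraries labelled wild-type, with no other difference in treatment given. The labels do not say whether the knockout cells were 1 clone or a pool, nor whether each library had a culture of its own. The p-values therefore measure the spread between these samples alone, and that spread may be technical. The design text names the comparison of knockout with wild-type Jurkat cells as the purpose of the experiment.

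Splicing removes introns from pre-mRNA. The U1 snRNP recognises the 5′ splice site, U2AF and the U2 snRNP with its SF3 proteins recognise the 3′ end of the intron, and the U4/U6.U5 tri-snRNP then joins to form the active spliceosome. SR proteins mostly promote the use of the exons they bind, hnRNP proteins often repress it, and CLK kinases phosphorylate SR proteins, which are stored in nuclear speckles. MATR3 (matrin 3) binds RNA in the nucleus and takes part in splicing. Coordinates below are those of the deposited table, whose assembly is not given in the sources used here. Reads were counted per gene, so the values are total transcript levels and say nothing about which exons were used.

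Total counts were 15008554 and 15022788 in the knockout-labelled libraries, against 17477643 and 15400214 in wild-type. The MATR3 row that could be tested held 42 and 61 reads in the knockout-labelled libraries, against 19 and 9 in wild-type. A second MATR3 row shares 38024 bases with it, 99.98% of the length of the shorter one, and shared reads can be lost to both, so MATR3 reads here do not check the label. All directions below are those of the libraries carrying the label. All 14 T cell markers were detected, 13 of them lower in the knockout-labelled libraries, with a summed level of 1363 to 1400 CPM there and 3202 to 3439 CPM in wild-type. CPM are counts scaled to a common library size, with trimmed-mean factors between libraries. Of 19 myeloid markers, 17 were tested, 15 were higher and 1 was lower (CTSG). The myeloid sum was 6140 to 6260 CPM in the knockout-labelled libraries against 571 to 577 CPM in wild-type. A single gene made up most of each sum. MPO gave 4972 and 4867 CPM of the knockout-labelled sum, and its mean in wild-type was 8.93 CPM. CTSG gave 408.0 and 393.1 CPM of the wild-type sum, and its mean in the knockout-labelled libraries was 92.3 CPM. ELANE, CSF3R and S100A8 had 0 reads in wild-type, and S100A8 had 0 reads in all 4 libraries. Of the markers of other cell types, the 3 epithelial genes that could be tested of 6 were all higher. The epithelial sum was 123.5 to 125.5 CPM in the knockout-labelled libraries, against 11.5 to 13.9 CPM in wild-type. KRT18 gave 87.3 and 85.3 CPM of the knockout-labelled sum. EPCAM and KRT19 had 0 reads in all 4 libraries, and CDH1 had 1 read, in wild-type replicate 2 alone. The summed B cell, natural killer, erythroid and fibroblast lists stayed at or below 62.1 CPM in every library. Mitochondrially encoded genes took 9.33% to 9.49% of counts in the knockout-labelled libraries and 4.92% to 5.31% in wild-type. The part of these shifts in the results on splicing genes was not tested, and in bulk RNA fewer cells of a type and less RNA per cell cannot be told apart.

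Most of the hnRNP, SR and snRNP genes among the 49 were modestly lower in the knockout-labelled libraries. The CLK kinases and most SR-related speckle genes among the 49 were higher. By edgeR's quasi-likelihood test, with p adjusted over all 15294 genes tested and a threshold of 0.05, 29 of the 49 genes were lower, 13 were higher and 7 did not pass the test. The falls ran down to a log2 fold change of -1.24 (DHX9) and the rises up to 1.28 (CLK4), and the median was -0.26, against 0.02 over all genes tested. Much of the transcriptome differed between these libraries, so the counts have to be read against that background. Of all genes tested 66.0% were called, 33.7% higher and 32.3% lower. Among the 4086 protein-coding genes averaging at least 50 CPM, a level that most of the splicing genes exceed, 79.4% were called, 29.9% higher and 49.5% lower. The called share of the splicing genes was 85.7%, with 26.5% higher and 59.2% lower, nearer to the shares of abundant protein-coding genes than to those of all genes tested. Their median absolute change of 0.46 on the log2 scale was also near the 0.45 of those abundant genes and below the 0.58 of all genes tested. The signed median of those abundant genes was -0.16, between the -0.26 of the splicing genes and the 0.02 of all genes tested.

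**Figure D1:**
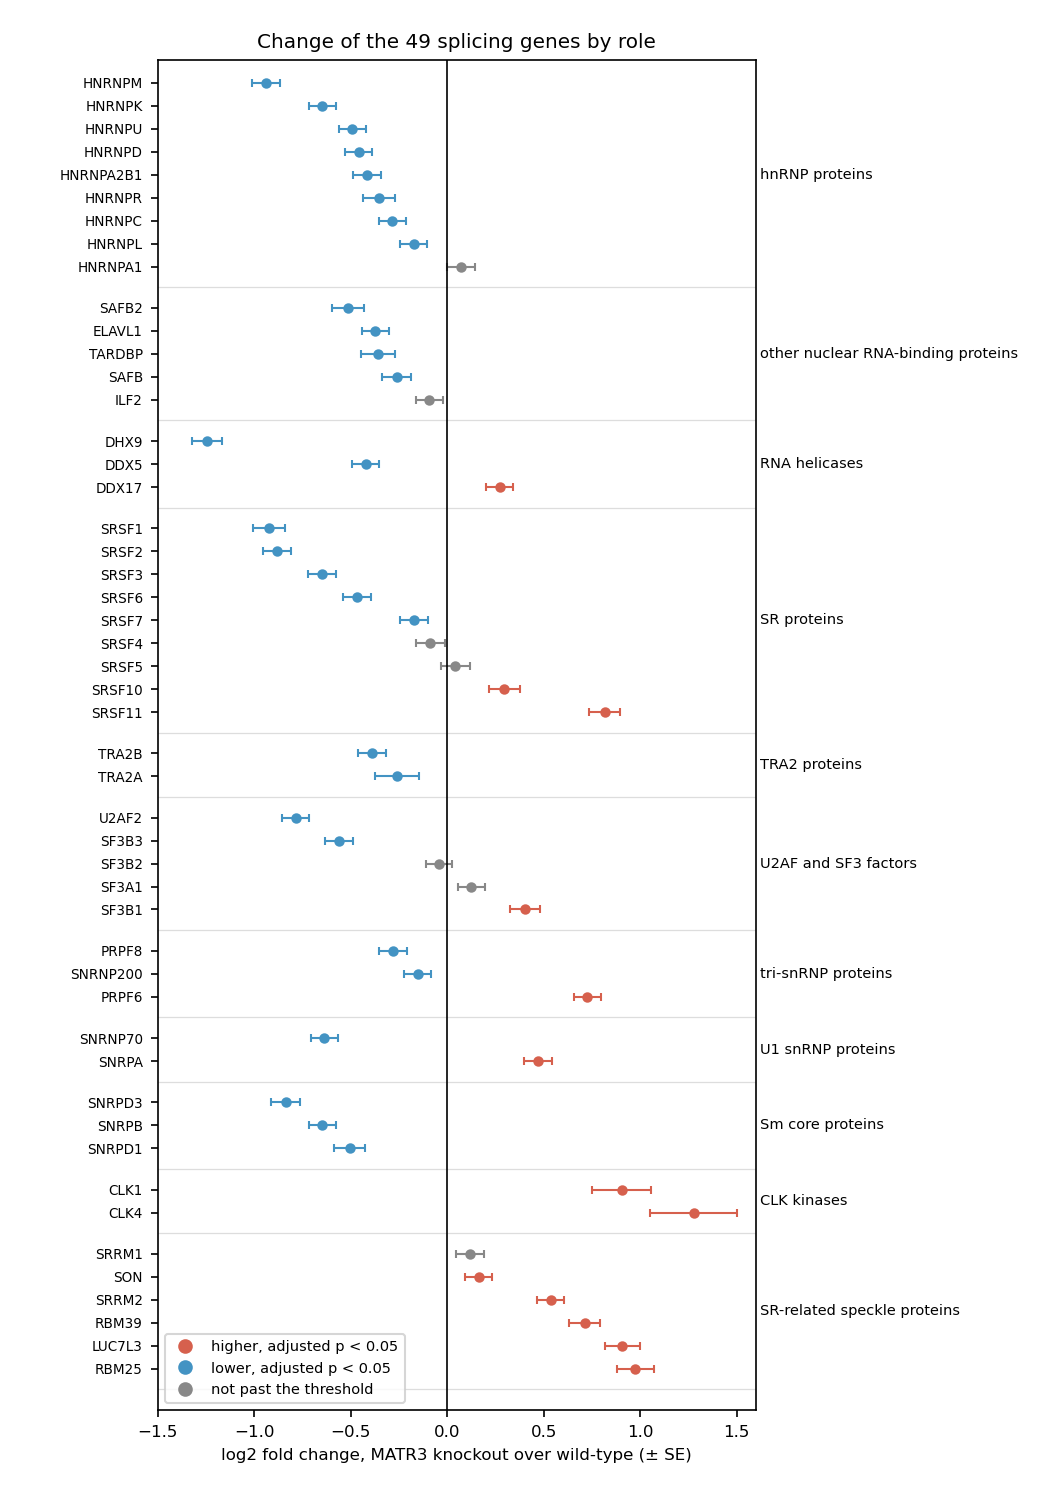
Log2 fold change (x axis, knockout over wild-type, bars are the standard error) of each of the 49 genes, grouped by role. Lower genes (blue) make up 8 of 9 hnRNP and all 3 Sm genes, higher genes (red) make up both CLK genes and 5 of 6 speckle genes, and SR proteins span from -0.92 (SRSF1) to 0.82 (SRSF11). Among all genes tested, 32.3% were lower and 33.7% higher.

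The 49 genes together took 1.201% and 1.211% of counts in the knockout-labelled libraries, against 1.399% and 1.490% in wild-type. Both knockout-labelled values lay below both wild-type values. The 2 groups did not overlap for 45 of the 49 genes. The same held for 12546 of the 15294 genes tested and for 3664 of the 4086 abundant protein-coding genes, so non-overlap was common. The knockout-labelled libraries were both below wild-type for 31 genes, a pattern found in 40.4% of all genes tested and 54.9% of abundant protein-coding genes. They were both above for 14 genes, against 41.6% of all genes tested and 34.8% of abundant protein-coding genes. Within groups, the median standard deviation was 2.11% of the mean in the knockout-labelled libraries and 6.43% in wild-type.

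**Figure D2:**
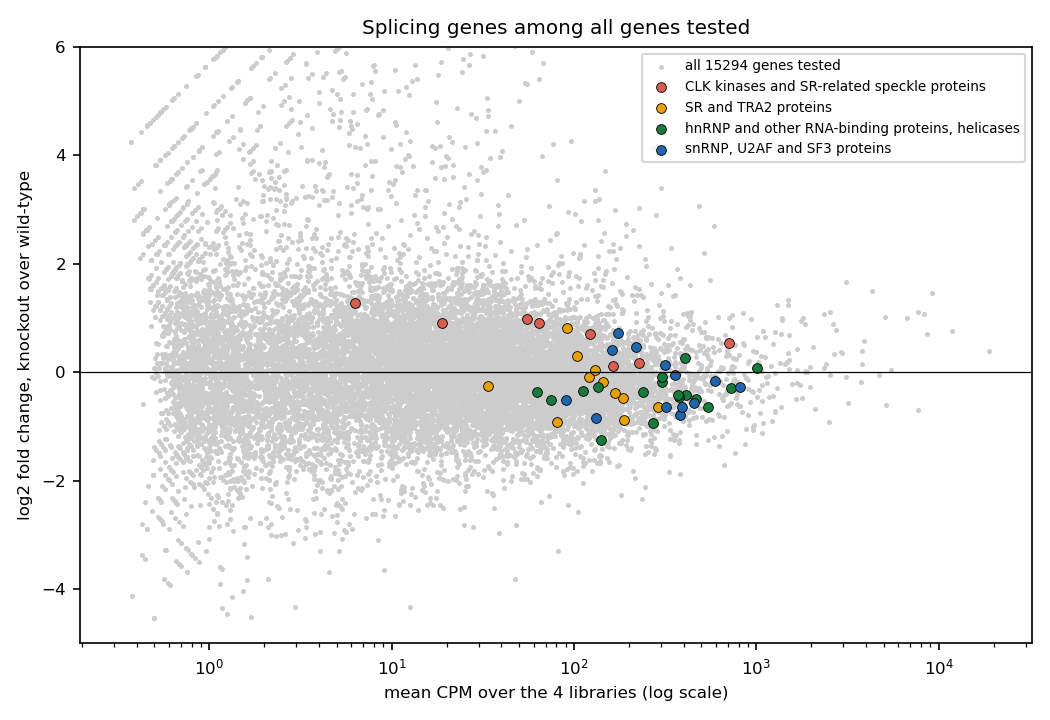
Log2 fold change (y axis, knockout over wild-type) against mean CPM over the 4 libraries (x axis, log scale) for all 15294 genes tested (grey) and the 49 splicing genes (coloured by role). A total of 321 grey genes lie outside the plotted range of -5 to 6. All but CLK4 (6.31 CPM), CLK1 (18.9 CPM) and TRA2A (33.7 CPM) of the splicing genes average over 50 CPM, and their changes lie between -1.24 and 1.28.

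Of the 9 hnRNP genes, 8 were lower and 0 higher (median log2 fold change -0.42). That is 88.9% lower, beside 32.3% of all genes tested and 49.5% of abundant protein-coding genes. The 18 other hnRNP and FET genes described below split into 6 lower and 6 higher (median 0.01). HNRNPM (ENSG00000099783, chromosome 19, 8444767 to 8489114) binds GU-rich RNA and stood at 183.5 and 189 CPM in the knockout-labelled libraries, against 334.2 and 379.7 CPM in wild-type. The groups did not overlap, and the mean fell by 47.8%. The log2 fold change was -0.94 (SE 0.0722, edgeR quasi-likelihood adjusted p = 9.89e-20). HNRNPK, a poly(C)-binding protein, stood at 423.2 and 425.4 CPM against 650.3 and 677.6 CPM in wild-type (log2 fold change -0.65, SE 0.0702). HNRNPU, a nuclear scaffold protein, stood at 389.5 and 386.9 CPM against 501.8 and 589.0 CPM in wild-type (log2 fold change -0.49, SE 0.0722), and HNRNPD, which binds AU-rich elements, at 317.4 and 319.5 CPM against 429.4 and 445.6 CPM (log2 fold change -0.46, SE 0.0696). HNRNPM differed by the most and HNRNPD by the least among these 4, and none of them overlapped between the groups.

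HNRNPA1, the most abundant of the 49 genes in CPM and a frequent repressor of exon inclusion, stood at 993.3 and 1061 CPM in the knockout-labelled libraries and at 923.8 and 1028 CPM in wild-type. The groups overlapped, and its log2 fold change of 0.07 did not pass the test (SE 0.0728, adjusted p = 0.375), although it passed without wild-type replicate 2 (adjusted p = 0.00754). HNRNPA2B1 (-0.42), HNRNPR (-0.35), HNRNPC (-0.28) and HNRNPL (-0.17) were lower on the log2 scale. HNRNPC lost its call without knockout-labelled replicate 1 (adjusted p = 0.121) or replicate 2 (adjusted p = 0.0668), and HNRNPL likewise (adjusted p = 0.221 and 0.362). The log2 fold change of HNRNPR depended on which wild-type library was kept, with -0.53 without wild-type replicate 1 and -0.14 without wild-type replicate 2, and HNRNPA2B1 ranged in the same way from -0.53 to -0.28.

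Of the 5 other nuclear RNA-binding protein genes, 4 were lower and 0 higher. That is 80% lower, beside 32.3% of all genes tested and 49.5% of abundant protein-coding genes. SAFB2 and SAFB encode paired scaffold attachment factors and lie head to head on chromosome 19, SAFB2 at 5586999 to 5624046 on the minus strand and SAFB at 5623035 to 5668478 on the plus strand, with 1012 bases in common. SAFB2 stood at 64.3 and 59.0 CPM in the knockout-labelled libraries, against 83.8 and 92.0 CPM in wild-type (log2 fold change -0.51, SE 0.0834). SAFB differed less, at -0.26 (SE 0.0735), and lost its call without either knockout-labelled library (adjusted p = 0.0838 without replicate 1 and 0.0793 without replicate 2). ELAVL1, the HuR protein that binds AU-rich mRNA, stood at 206 and 208.5 CPM against 266.2 and 269.9 CPM in wild-type. TARDBP, which encodes TDP-43, stood at 52.5 and 57.9 CPM against 67.3 and 74.0 CPM in wild-type, and its call was lost without knockout-labelled replicate 1 (adjusted p = 0.0728). ILF2, a nuclear protein that takes part in RNA processing, stood at 294.2 and 296.9 CPM against 321 and 309.3 CPM in wild-type, a log2 fold change of -0.09 that did not pass the test (adjusted p = 0.237) but passed without wild-type replicate 2 (adjusted p = 0.0109).

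The 3 RNA helicase genes went different ways. DHX9 (ENSG00000135829, chromosome 1, 182839369 to 182887751), a helicase that unwinds double-stranded RNA, had the largest fall of the 49 genes. It stood at 79.7 and 86.2 CPM in the knockout-labelled libraries, against 180.8 and 212.4 CPM in wild-type, and was the 1 gene among the 49 that was at least 2-fold lower (10.7% of all genes tested and 7.49% of abundant protein-coding genes were). Its log2 fold change was -1.24 (SE 0.078, edgeR quasi-likelihood adjusted p = 1.95e-24), between -1.34 and -1.14 when single libraries were left out. The median change of the 25 tested genes on either side of it was 0.29, in the other direction. DDX5, the p68 helicase of splicing and transcription, stood at 318.1 and 314.6 CPM against 404.6 and 443.2 CPM in wild-type (log2 fold change -0.42, SE 0.0702). DDX17, the paralogue of DDX5, stood at 448.3 and 438.3 CPM against 354 and 380.4 CPM in wild-type (log2 fold change 0.27, SE 0.0699). The call for DDX17 was lost without knockout-labelled replicate 1 (adjusted p = 0.0966) or replicate 2 (adjusted p = 0.0548).

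Ratios of reads within a library do not depend on the scaling between libraries. The ratio of DDX17 to DDX5 reads was 1.41 and 1.39 in the knockout-labelled libraries, against 0.875 and 0.858 in wild-type. By reads, the more abundant paralogue was DDX17 in the first group and DDX5 in the other. The DDX17 gene model is longer (9995 against 7388 bases). Per kilobase of model, DDX17 and DDX5 were close in the knockout-labelled libraries (44.4 and 42.8 CPM) and further apart in wild-type (36.7 and 57.4 CPM). HNRNPM to HNRNPL was 0.637 and 0.674 against 1.031 and 1.202 in wild-type, and CLK4 to CLK1 was 0.366 and 0.359 against 0.257 and 0.298. SAFB to SAFB2 was 1.92 and 2.10 against 1.74 and 1.64 in wild-type, and SRRM1 to SRRM2 was 0.200 and 0.205 against 0.253 and 0.289. TRA2A to TRA2B, at 0.193 and 0.227 against 0.194 and 0.190 in wild-type, was the 1 of the 6 ratios in which the groups overlapped. These ratios are given without a test: with 2 libraries a group, a two-sided exact permutation test cannot go below p = 0.333, and no other test was run on them.

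**Figure D3:**
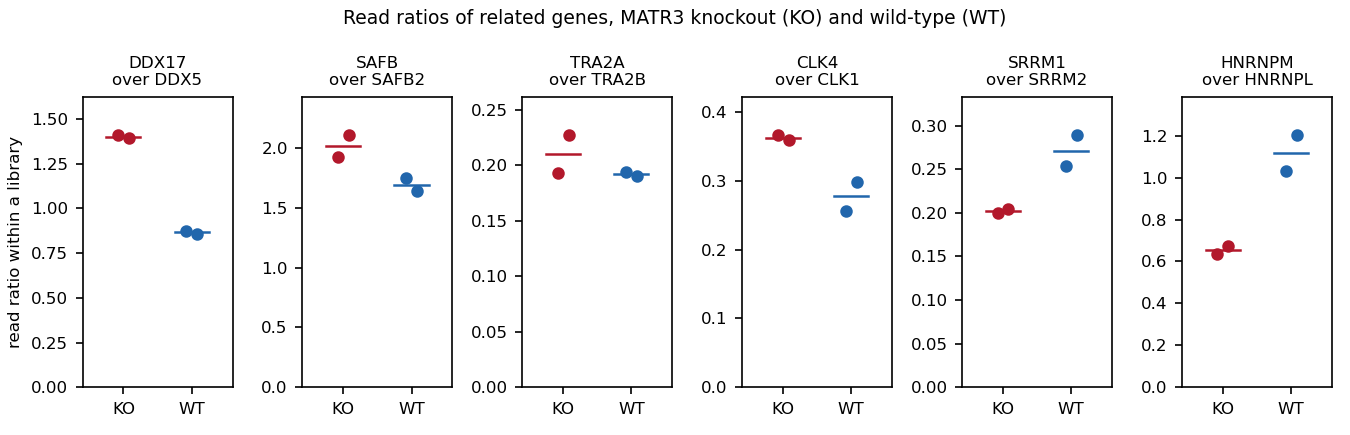
Ratio of raw reads of 2 related genes within each library (y axis, from 0), with 1 point per library and a line at the mean of the 2 knockout-labelled (KO, left) or 2 wild-type (WT, right) libraries. DDX17 over DDX5 stands at 1.39 to 1.41 in KO and 0.858 to 0.875 in WT, and the groups overlap in TRA2A over TRA2B.

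SR proteins divided, with 5 of 9 genes lower, 2 higher and 2 not called. Their share lower was 55.6%, near the 49.5% of abundant protein-coding genes and above the 32.3% of all genes tested. SRSF1 (ENSG00000136450, chromosome 17, 58003360 to 58007346), the founding SR protein SF2/ASF, stood at 57.7 and 53.5 CPM in the knockout-labelled libraries, against 97.4 and 113.6 CPM in wild-type (log2 fold change -0.92, SE 0.084, edgeR quasi-likelihood adjusted p = 2.91e-16). SRSF2, also known as SC35, stood at 134.3 and 131.7 CPM against 249.1 and 240.6 CPM in wild-type (log2 fold change -0.88, SE 0.0718). SRSF3, the smallest SR protein, stood at 224.3 and 227 CPM against 336.2 and 370.8 CPM in wild-type (log2 fold change -0.65, SE 0.0709). In all 3 the knockout-labelled values were below both wild-type values. SRSF6 followed at -0.47 and SRSF7 at -0.17, and the call for SRSF7 was lost without wild-type replicate 2 (adjusted p = 0.0552) and without knockout-labelled replicate 1 (adjusted p = 0.251) or replicate 2 (adjusted p = 0.298).

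SRSF11 (ENSG00000116754, chromosome 1, 70205682 to 70253052), also called p54, went the other way, with 118.9 and 115.8 CPM in the knockout-labelled libraries, against 61.3 and 72.2 CPM in wild-type. Its log2 fold change was 0.82 (SE 0.0808, edgeR quasi-likelihood adjusted p = 1.05e-14). SRSF10, which acts as a splicing repressor when dephosphorylated, was at 0.30 (SE 0.0794), with a call lost without knockout-labelled replicate 1 (adjusted p = 0.0976) and a value of 0.195 without wild-type replicate 1. SRSF4 (-0.09, adjusted p = 0.299) and SRSF5 (0.04, adjusted p = 0.635) did not pass the test. The TRA2 proteins, SR-like activators of exon inclusion, were both lower. TRA2B stood at 148.3 and 144 CPM against 183.2 and 199.6 CPM in wild-type (log2 fold change -0.39, SE 0.0724). TRA2A was at -0.26 (SE 0.116, adjusted p = 0.0429) and lost its call without knockout-labelled replicate 1 (log2 fold change -0.17, adjusted p = 0.432), knockout-labelled replicate 2 (adjusted p = 0.0867) or wild-type replicate 2 (adjusted p = 0.0759).

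**Figure D4:**
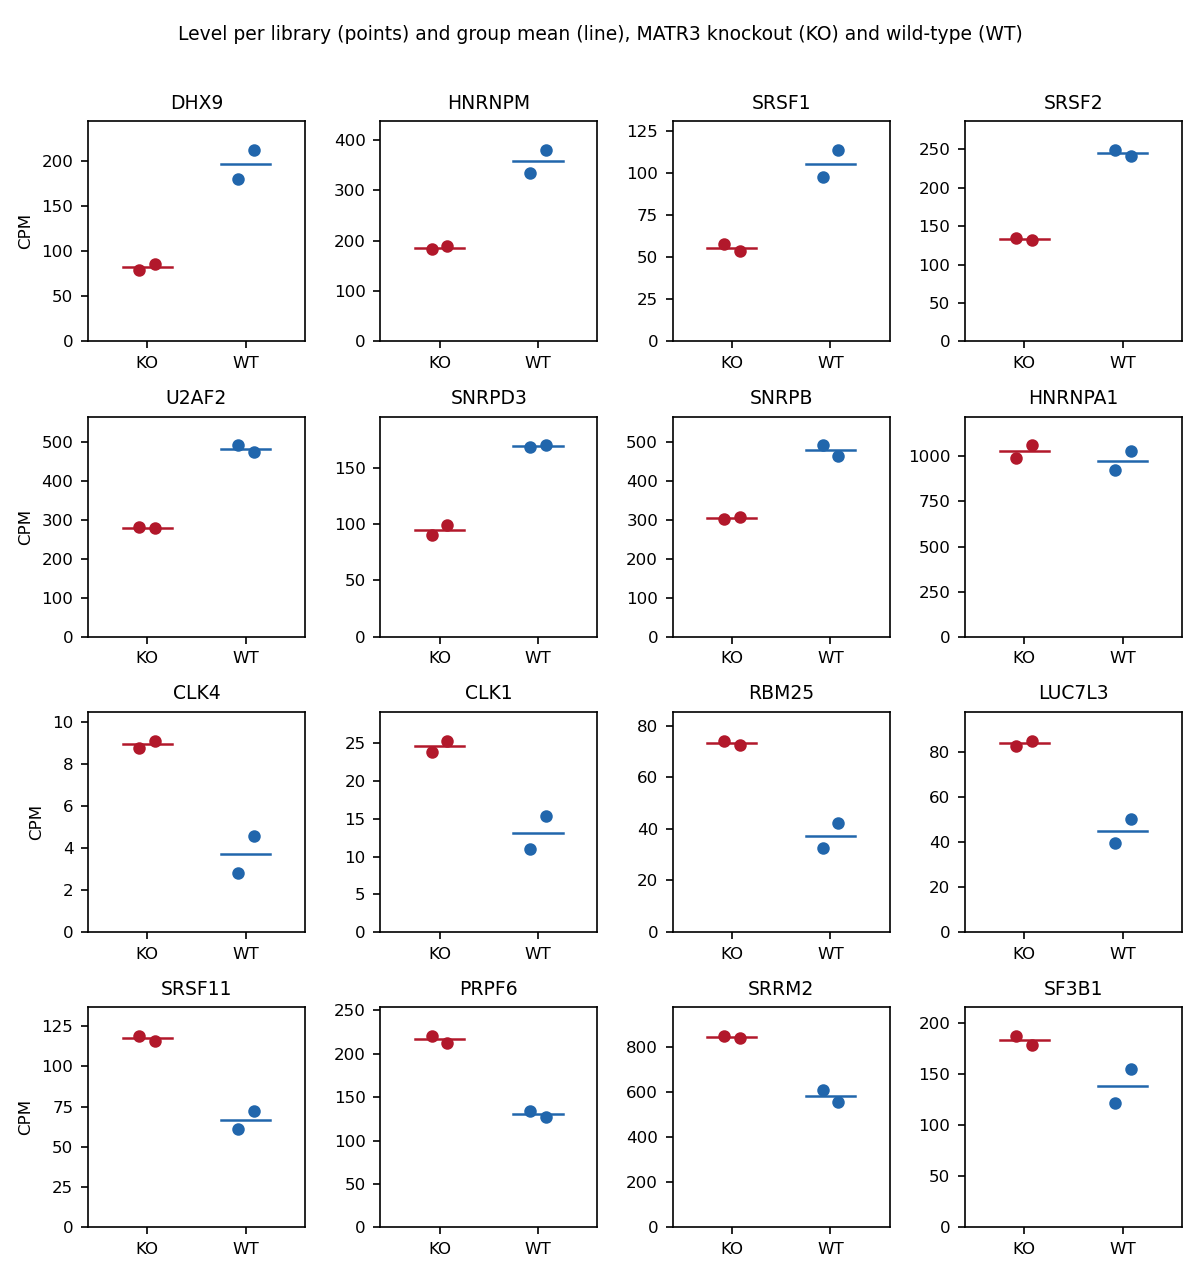
Level in CPM (y axis, from 0, with its own range in each panel) of 16 of the genes, with 1 point per library and a line at the mean of the 2 knockout-labelled (KO, left) or 2 wild-type (WT, right) libraries. The groups overlap for HNRNPA1 and for none of the other 15 genes drawn.

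Factors of 3′ splice site and branch site recognition were mixed, with 2 of 5 lower, 1 higher and 2 not called. Their share lower was 40%, beside 32.3% of all genes tested and 49.5% of abundant protein-coding genes. U2AF2 (ENSG00000063244, chromosome 19, 55654146 to 55674715), the large U2AF subunit that binds the polypyrimidine tract, stood at 280.4 and 279.1 CPM in the knockout-labelled libraries, against 490.5 and 472.8 CPM in wild-type (log2 fold change -0.78, SE 0.0699, edgeR quasi-likelihood adjusted p = 1.10e-16). SF3B3, a scaffold subunit of SF3B, stood at 375.8 and 357.6 CPM against 567 and 514.3 CPM in wild-type (log2 fold change -0.56, SE 0.0709). SF3B1, the subunit that holds the branch site helix and is often mutated in blood cancers, stood at 187.1 and 178.6 CPM against 122 and 154.6 CPM in wild-type (log2 fold change 0.40, SE 0.0773). Thus 2 subunits of the same SF3B complex differed in opposite directions, and SF3B1 was at 0.26 with wild-type replicate 1 left out and at 0.57 with wild-type replicate 2 left out. SF3B2 (-0.04, adjusted p = 0.613) and SF3A1 (0.13, adjusted p = 0.113) did not pass the test, although SF3A1 did without wild-type replicate 1 (adjusted p = 0.00037).

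The 3 tri-snRNP genes and the 2 U1 genes were each split. PRPF6 (ENSG00000101161, chromosome 20, 63981135 to 64033100), which bridges the U5 and U4/U6 particles, stood at 220.4 and 212.2 CPM in the knockout-labelled libraries, against 134.2 and 127.1 CPM in wild-type (log2 fold change 0.73, SE 0.0721, edgeR quasi-likelihood adjusted p = 1.10e-14). PRPF8, the scaffold of the catalytic centre, stood at 748.8 and 714 CPM against 946.3 and 829.9 CPM in wild-type (log2 fold change -0.28, SE 0.0725), and lost its call without knockout-labelled replicate 1 (adjusted p = 0.0589) or replicate 2 (adjusted p = 0.159). Its log2 fold change was -0.16 without wild-type replicate 1 and -0.39 without wild-type replicate 2, with the call kept in both. SNRNP200, the helicase that unwinds U4 from U6, was at -0.15 with an adjusted p of 0.0493, and that call was lost without knockout-labelled replicate 1 (adjusted p = 0.304) or replicate 2 (adjusted p = 0.469). Of the U1 proteins, SNRNP70 stood at 257.5 and 241.3 CPM against 397.8 and 377.9 CPM in wild-type (log2 fold change -0.64, SE 0.0704). SNRPA, which binds a stem-loop of U1 snRNA, stood at 247.4 and 257.8 CPM against 189.6 and 174.6 CPM in wild-type (log2 fold change 0.47, SE 0.0712). Neither of the U1 genes overlapped between the groups.

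All 3 Sm core genes, whose proteins form the ring that is shared by the U1, U2, U4 and U5 snRNPs, were lower. Lower genes made up 32.3% of all genes tested and 49.5% of abundant protein-coding genes. SNRPD3 stood at 90.1 and 99.4 CPM in the knockout-labelled libraries, against 168.4 and 169.8 CPM in wild-type (log2 fold change -0.84, SE 0.0753, edgeR quasi-likelihood adjusted p = 1.76e-16). SNRPB, the source of the SmB proteins, stood at 303.3 and 309 CPM against 492.4 and 465.8 CPM in wild-type (log2 fold change -0.65, SE 0.07). SNRPD1 stood at 71.8 and 77.8 CPM against 100.5 and 111.9 CPM in wild-type (log2 fold change -0.50, SE 0.08). Summed over the 3 genes, the level was 465.3 and 486.2 CPM against 761.4 and 747.5 CPM in wild-type. The summed mean fell by 36.9%, the largest such fall among the 11 roles.

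Both CLK kinase genes were higher, as were 33.7% of all genes tested. CLK4 (ENSG00000113240, chromosome 5, 178602664 to 178630615) stood at 8.73 and 9.10 CPM in the knockout-labelled libraries, against 2.81 and 4.58 CPM in wild-type. These values rest on 128 and 135 reads against 49 and 73 reads, and the log2 fold change of 1.28 (SE 0.226, edgeR quasi-likelihood adjusted p = 9.04e-07) was 0.98 with wild-type replicate 1 left out and 1.65 with wild-type replicate 2 left out. CLK1 stood at 23.9 and 25.4 CPM against 10.96 and 15.39 CPM in wild-type (log2 fold change 0.91, SE 0.153). In both genes wild-type replicate 2 lay nearer to the knockout-labelled libraries than wild-type replicate 1 did.

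Of the 6 SR-related speckle genes, 5 were higher and 0 lower. That is 83.3% higher, beside 33.7% of all genes tested and 29.9% of abundant protein-coding genes. RBM25 (ENSG00000119707, chromosome 14, 73058436 to 73123898), which acts with the U1 snRNP in 5′ splice site choice, stood at 74.2 and 72.3 CPM in the knockout-labelled libraries, against 32.5 and 42.1 CPM in wild-type (log2 fold change 0.97, SE 0.0961, edgeR quasi-likelihood adjusted p = 8.58e-15). LUC7L3, a relative of a yeast U1 protein, stood at 82.8 and 85.0 CPM against 39.4 and 50.2 CPM in wild-type (log2 fold change 0.91, SE 0.0905). RBM39, a U2AF2-related protein and the target of sulfonamide degraders, stood at 148.2 and 153.9 CPM against 80.5 and 103.9 CPM in wild-type (log2 fold change 0.71, SE 0.0807). In each of these 3 genes wild-type replicate 2 was the higher wild-type library, and both knockout-labelled libraries were above it. SRRM2, a scaffold of nuclear speckles, stood at 847.4 and 836.1 CPM against 606.7 and 553.7 CPM in wild-type (log2 fold change 0.54, SE 0.0713). SON, the other speckle scaffold, was at 0.16 (adjusted p = 0.0361), a call lost without knockout-labelled replicate 1 (adjusted p = 0.226) or replicate 2 (adjusted p = 0.362). Calls that also failed under another scaling were those of HNRNPL, SRSF7, SNRNP200 and TRA2A with upper-quartile factors (adjusted p = 0.102, 0.116, 0.174 and 0.0811), and that of SON with DESeq2 size factors (adjusted p = 0.0549). SRRM1 was at 0.12 and did not pass the test (adjusted p = 0.133), but passed without wild-type replicate 2 (adjusted p = 0.0278).

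The wild-type libraries themselves differed, with a chi-square per gene of 5.83 over all genes with at least 20 reads. Wild-type replicate 2 was above replicate 1 in 34 of the 49 genes, among them 10 of the 13 genes that were higher and 20 of the 29 that were lower in the knockout-labelled libraries. PRPF6, SNRPA and SRRM2 were the higher genes in which it was not. The share of all genes tested with wild-type replicate 2 above replicate 1 was not computed, so these counts set no trait of the 49 genes apart. Gene length differed between the roles. The median gene model was 11897.5 bases for the SR-related speckle genes, 10926 for the tri-snRNP genes, of which 2 of 3 were lower, 6981 for the hnRNP genes, 6547 for the CLK kinases and 2544 for the Sm genes, against 4553 bases over all genes tested. Across the 49 genes, which share the same 4 libraries, Spearman's correlation of gene length with log2 fold change was 0.36, and across all 15294 genes tested it was 0.13. Length correlated at 0.19 across the 49 genes and at 0.13 across all genes tested with the log2 ratio of wild-type replicate 2 to replicate 1, and at -0.28 across the 49 genes with that of knockout-labelled replicate 2 to replicate 1. The part of gene length in the results was not tested.

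Levels of different genes were compared per kilobase of gene model. SNRPB had the highest level, with 239.6 CPM per kilobase in the knockout-labelled libraries and 374.9 in wild-type. HNRNPA1 followed with 201.7 and 191.6 CPM per kilobase in the same order of groups, and ILF2 with 129.6 and 138.2. Next came SNRPA in the knockout-labelled libraries (107, against 77.1 in wild-type), but HNRNPK in wild-type (82.96 in the knockout-labelled libraries, against 129.8). CLK4 was the lowest, with 1.12 CPM per kilobase in the knockout-labelled libraries and 0.467 in wild-type. Gene models join all annotated exons of a gene, so a long model such as that of HNRNPU (22512 bases) lowers its value per kilobase.

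Reads of some of these genes could be shared with other rows. A total of 15 of the 49 genes had pseudogene rows of their own name, 108 rows in all, and these held at most 3.36% as many reads as the gene itself (HNRNPA1). An overlapping row was annotated for 33 genes, on the opposite strand for 24 of them. For 9 genes (HNRNPA2B1, SAFB, SAFB2, ILF2, SRSF2, SNRPA, SNRPD3, SON and SRRM2) such a row held at least 10% as many reads as the gene. SNRPD3 overlaps GGT1 on its own strand over 26231 bases, and GUCD1 and LRRC75B on the other. GUCD1 held 2446 and 2603 reads in the knockout-labelled libraries, against 3493 and 2929 in wild-type, up to 185% as many as SNRPD3. GGT1 held 1289 and 1282 against 1648 and 1336 in wild-type, up to 97.6% as many. LRRC75B held fewer, with 115 and 89 reads in the knockout-labelled libraries, against 0 and 1 in wild-type. The rule for reads in shared stretches is not given in the sources used here, so the levels of these 9 genes are less certain.

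Some of the genes lie among neighbours that shifted as a group. The median log2 fold change of up to 25 tested genes on each side was -0.78 around PRPF8 (chromosome 17, 212389 to 3661542), where PRPF8 itself was at -0.28. It was 0.81 around SRSF7 (chromosome 2, 32165841 to 46187990), where SRSF7 was at -0.17, and 0.54 around SF3B1 (chromosome 2, 189441433 to 201229406), where SF3B1 was at 0.40. For the other genes it lay between -0.45 and 0.46.

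Another 136 genes, called other splicing genes here, were divided into 11 lists by complex or pathway. They include 14 genes of snRNP assembly and 10 of nonsense-mediated mRNA decay, which are not parts of the spliceosome. Of 135 tested, 56 were lower (41.5%) and 43 higher (31.9%), and the median log2 fold change was -0.04. Of all genes tested 32.3% were lower and 33.7% higher, and of abundant protein-coding genes 49.5% and 29.9%. The shares called in either direction were 73.3%, 66.0% and 79.4% in the same order. The other Sm and LSm proteins had 10 lower and 1 higher among 12 tested (median -0.78). LSM7, a subunit of the ring on U6, stood at 60.1 ± 3.04 CPM in the knockout-labelled libraries and 133.4 ± 2.25 CPM in wild-type (SD, n = 2 each), and SNRPN, a neuronal relative of SNRPB, was at -1.22 on the log2 scale. LSM8 was the 1 higher gene, at 0.47, and lost its call without knockout-labelled replicate 1 (adjusted p = 0.0706). The other tri-snRNP proteins had 11 lower and 1 higher among 13 tested (median -0.64), with the helicase gene DDX23 at 150 ± 4.51 against 328.8 ± 17.1 CPM in wild-type and the cyclophilin gene PPIH at -1.07. The 1 higher gene, PRPF3, at 1.797, lies on chromosome 1 among neighbours with a median of 1.94. The exon junction complex genes, whose proteins mark spliced mRNA, had 7 lower and 1 higher among 9 tested, with MAGOH at -0.89 and EIF4A3 at -0.83 against PNN at 1.29.

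Other lists held more rises. The share higher was 50% for the SR proteins and kinases, 57.1% for the U1-associated genes and 37.5% for the U2 and branch-site genes. It was 35% for the NTC and catalytic-step genes and 33.3% for the hnRNP and FET genes. Of all genes tested 33.7% were higher, and of abundant protein-coding genes 29.9%. SR protein kinases and the remaining SR proteins had 4 higher and 2 lower among 8 tested, with PRPF4B, a kinase of tri-snRNP proteins, at 49.3 ± 4.15 CPM in the knockout-labelled libraries and 27.0 ± 2.01 CPM in wild-type (SD, n = 2 each). CLK2 was at 0.60 on the log2 scale, SRSF9 at -0.52 and SRSF8 at -0.29, the last with its call lost without knockout-labelled replicate 1 (adjusted p = 0.171) or replicate 2 (adjusted p = 0.0652). Among 7 U1-associated genes 4 were higher and 2 lower, with PRPF39 at 0.53 and SNRPC, a U1 snRNP protein, at -0.63. The call for PRPF39 was lost without wild-type replicate 1 (log2 fold change 0.29, adjusted p = 0.137) or knockout-labelled replicate 1 (adjusted p = 0.0604), and its value was 0.81 without wild-type replicate 2. The call for LUC7L (-0.23) was lost without knockout-labelled replicate 1 (adjusted p = 0.307) or replicate 2 (adjusted p = 0.132). Genes of the U2 snRNP and branch site had 7 lower and 6 higher among 16 tested, with PUF60, a U2AF2-related protein, at 155.6 ± 0.282 CPM against 369.1 ± 25.7 CPM in wild-type, PHF5A at -0.71 and SF3B4 at 1.10. SF3B4 lies among neighbours with a median of 2.50. The U2AF1 value of 1.89 rests on 1 library, with 23.8 ± 27.6 CPM in the knockout-labelled group, and became -0.58 without replicate 2 of that group (adjusted p = 0.126). The NTC and catalytic-step genes had 7 higher, 2 lower and 11 not called among 20 tested, with SLU7 at 1.36, SYF2 at 0.86, DHX8 at -0.59 and CTNNBL1 at -0.54. Other hnRNP and FET genes had 6 higher and 6 lower among 18 tested, with SYNCRIP at 0.77 and PCBP2 at 0.55 against TAF15 at -0.98 and HNRNPAB at -0.77. SYNCRIP lies among neighbours with a median of 0.78.

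**Figure D5:**
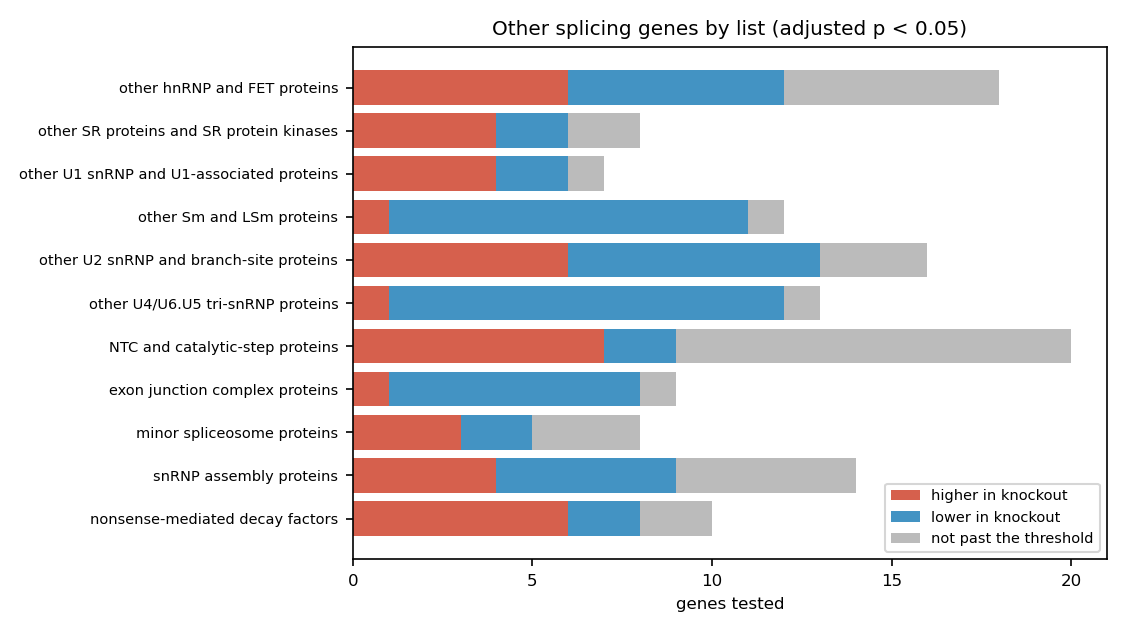
Number of genes tested (x axis) in each of 11 lists of other splicing genes, divided into those higher (red), lower (blue) or not called (grey) in the knockout-labelled libraries. Blue takes 10 of 12 genes in the Sm and LSm list and 11 of 13 in the tri-snRNP list, and 32.3% of all genes tested were lower.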

How the data were processed

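Raw read counts per gene were deposited by the authors without normalization, 4 columns in all, 1 per library. RNA was extracted with Trizol, per the labels' protocols, and the tools, per the submitters' processing notes, include featureCounts 1.5.0-p3, HISAT2 2.0.5 and CASAVA 1.8. Strandedness, multi-mapping and build were not given in the sources used here. Row identifiers are human Ensembl ones although GEO's organism field names the mouse, so mouse references were not used.

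The test was edgeR 4.0.16 (R 4.3.3) quasi-likelihood, two-sided, with TMM scaling (factors 0.978 to 1.04), its expression filter (10 counts minimum, 15 in total), no covariate and Benjamini-Hochberg adjustment over 15294 genes. It was tried first on simulated data with few changed genes, balanced up and down. That simulation cannot check the scaling or error rates where most genes are called, as here. Standard errors are the log2 fold change divided by the root of the F statistic. All 49 genes passed the filter. CPM were computed over the reads of tested genes with TMM factors. Replicates were not duplicates (a chi-square per gene of 2.21 between the knockout-labelled and 5.83 between the wild-type libraries, over genes with at least 20 reads). DESeq2 1.42.0 and limma 3.58.1 were alternatives, beside other scalings, filters and thresholds, a replicate block and leaving out each library.

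Members and lists were chosen with earlier results of these data known. Values are given per library for up to 4 of the most changed genes of a role, at most 30 in all, and for its most abundant gene. Of other lists up to 2 of the largest rises and falls are named (a gene that this rule also picks is not reported here), and some further examples were chosen after their values were seen.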

Additional observations from a re-analysis of the deposited data

How the results depend on the processing

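Over 17 alternatives, 31 of the 42 called splicing genes kept their direction and call in all but the 2 stricter thresholds. The other 11 were HNRNPC, HNRNPL, SAFB, TARDBP, DDX17, SRSF7, SRSF10, TRA2A, PRPF8, SNRNP200 and SON, and the cause was not tested. Requiring a 1.5-fold change as well left 7 splicing genes higher and 10 lower, and 23 and 28 of the other splicing genes, by the construction of that threshold. The share of all genes passing that threshold is not given here, so these counts set no trait of the splicing genes apart. Leaving out single libraries gave 10 to 15 higher and 21 to 29 lower splicing genes, 34 to 49 higher and 45 to 59 lower other splicing genes, and 8018 to 10263 called genes in all. The share of counts in the 49 genes differed by -0.239 percentage points, and by -0.191 with mitochondrially encoded rows left out of the total. SRSF5 reversed to -0.0061 with total counts only and ranged from -0.011 to 0.10 without single libraries. SF3B2 ranged from -0.098 to 0.020 and U2AF1 from -0.58 to 2.75. Adding the reads of pseudogene rows, an alternative chosen after seeing the data, left 13 higher and 29 lower. The replicate numbers did not pair the samples (correlation of deviations 0.028), and the fit with the replicate block also gave 13 higher and 29 lower. At these depths genes with few reads, such as CLK4, are the least precise.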

Other observations

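Genes of nonsense-mediated mRNA decay, the pathway that degrades transcripts with early stop codons, numbered 6 higher and 2 lower of 10 tested (median 0.35). That is 60% higher and 20% lower, beside 33.7% and 32.3% of all genes tested and 29.9% and 49.5% of abundant protein-coding genes. In either direction 80% were called, beside 66.0% of all genes tested and 79.4% of abundant protein-coding genes. UPF3B stood at 9.90 ± 0.11 CPM in the knockout-labelled libraries and 4.33 ± 0.36 CPM in wild-type (SD, n = 2 each), a log2 fold change of 1.19 (SE 0.21, edgeR quasi-likelihood adjusted p = 8.01e-07), and UPF3A was at 0.99. SMG6, the endonuclease of the pathway, was at -0.39 among neighbours with a median of -0.67, and its call was lost without knockout-labelled replicate 2 (adjusted p = 0.0866). SMG8 was at -0.30 and lost its call without knockout-labelled replicate 1 (adjusted p = 0.0869), knockout-labelled replicate 2 (adjusted p = 0.351) or wild-type replicate 1 (adjusted p = 0.0626).

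Among 14 snRNP assembly genes 4 were higher and 5 lower, so 64.3% were called, against 66.0% of all genes tested. GEMIN4, a subunit of the SMN complex, stood at 79.2 ± 7.42 CPM in the knockout-labelled libraries and 185.8 ± 12.8 CPM in wild-type (SD, n = 2 each), among neighbours with a median of -0.81, and WDR77, a partner of the Sm protein methylase PRMT5, was at -1.10 on the log2 scale. GEMIN5, which recognises snRNAs, was at 0.98. SMN2 was at 1.32, but it is nearly identical to SMN1, so how their reads were divided is uncertain. Among 8 minor spliceosome genes 3 were higher and 2 lower, so 62.5% were called, also below that of all genes tested. SNRNP25 stood at 59.2 ± 3.46 CPM against 182 ± 8.11 CPM in wild-type, with RNPC3 at 1.16 and SNRNP48 at 1.01 on the log2 scale. ZMAT5 was at -0.44 and lost its call without knockout-labelled replicate 1 (adjusted p = 0.0876).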
